A study of Mus musculus with 6 samples.

Results

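The genes described here are 10 genes of the Nrf2 antioxidant response: Nfe2l2, Keap1, Nqo1, Gclc, Gclm, Txnrd1, Srxn1, Osgin1, Slc7a11 and Gsr. Their members were taken as every non-control array probe whose transcript accession maps to one of these symbols in RefSeq, which gave 10 of 20659 named genes on the array and 11 probes of 39429, with 2 probes for Gsr and 1 for each of the other genes. Every probe was kept separate. The study compared liver RNA of untreated, 6-week-old male mice of genotype Sec15 KO with that of untreated WT males of the same age, with 3 samples per group. Each sample was hybridised to 1 one-colour (Cy3) oligonucleotide array. Sec15 is a subunit of the exocyst, which tethers secretory vesicles to the plasma membrane. The labels do not say which of the mouse Sec15 genes was knocked out, in which cells, or by which allele, and do not give the strain. Whether the numbered samples are separate animals is not stated, and 2 of the WT samples, replicates 1 and 2, carry 1 number in their file labels. The p-values therefore cover only sample-to-sample spread, part of which may be technical.

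Nrf2, the product of Nfe2l2, is the transcription factor that switches on the genes with which cells detoxify electrophiles and oxidants. In unstressed cells Keap1 holds Nrf2 and presents it to the Cul3 and Rbx1 ubiquitin ligase for degradation. Electrophiles modify cysteines of Keap1, and Nrf2 then escapes degradation, enters the nucleus and binds antioxidant response elements together with a small Maf protein. Much of this control acts on the protein, and an array measures only RNA. In liver the pathway is known for its role in the response to drugs such as acetaminophen and in the upkeep of glutathione.

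The core letters of the antioxidant response element are TGACNNNGC. The promoters below are shown because they either belong to the members called different between the genotypes (Keap1, Osgin1 and Nfe2l2) or hold one of the motifs searched (Nfe2l2, Gclm, Txnrd1, Srxn1 and Osgin1). Each is the 250 bases before a start position that the RefSeq promoter table gives for the gene (assembly GRCm38.p6), printed 5′ to 3′ on the gene's strand. For Nfe2l2, Keap1 and Srxn1 that position is the outer end of the annotated gene. For Gclm, Osgin1 and the Txnrd1 window shown it lies inside the annotated gene, so these windows precede an internal start. Capitals mark TGACNNNGC on either strand, and TGANTCA. The latter covers AP-1 sites, whose middle letter is C or G, but allows any middle letter. AP-1 sites also occur within many response elements.
Nfe2l2, chr2:75704664-75704913, minus strand: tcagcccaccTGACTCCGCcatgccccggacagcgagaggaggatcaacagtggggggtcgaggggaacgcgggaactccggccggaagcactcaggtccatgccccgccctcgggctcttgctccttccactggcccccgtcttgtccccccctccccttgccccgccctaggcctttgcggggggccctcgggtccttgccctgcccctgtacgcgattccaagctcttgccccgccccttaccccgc
Gclm, chr3:122245307-122245556, plus strand: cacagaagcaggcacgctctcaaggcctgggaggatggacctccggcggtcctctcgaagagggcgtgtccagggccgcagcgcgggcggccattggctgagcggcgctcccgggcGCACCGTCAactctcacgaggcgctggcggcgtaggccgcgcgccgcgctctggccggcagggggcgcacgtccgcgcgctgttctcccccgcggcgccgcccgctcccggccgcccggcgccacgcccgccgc
Txnrd1, chr10:82858956-82859205, plus strand: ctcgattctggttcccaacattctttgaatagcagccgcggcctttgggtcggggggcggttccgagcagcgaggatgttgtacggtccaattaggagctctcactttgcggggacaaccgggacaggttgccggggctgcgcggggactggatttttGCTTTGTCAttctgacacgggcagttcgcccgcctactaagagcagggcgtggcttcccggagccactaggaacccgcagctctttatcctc
Srxn1, chr2:152105274-152105523, plus strand: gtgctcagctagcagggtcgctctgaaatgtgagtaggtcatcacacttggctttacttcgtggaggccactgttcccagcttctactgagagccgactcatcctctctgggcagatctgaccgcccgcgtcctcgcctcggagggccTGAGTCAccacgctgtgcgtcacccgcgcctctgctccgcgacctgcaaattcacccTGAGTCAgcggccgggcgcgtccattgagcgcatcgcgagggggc
Osgin1, chr8:119436897-119437146, plus strand: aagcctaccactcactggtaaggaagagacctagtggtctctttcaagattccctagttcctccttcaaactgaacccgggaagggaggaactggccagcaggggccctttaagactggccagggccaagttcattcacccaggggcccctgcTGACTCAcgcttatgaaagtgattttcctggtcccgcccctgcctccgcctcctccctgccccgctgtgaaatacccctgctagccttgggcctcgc
Keap1, chr9:21239333-21239582, minus strand: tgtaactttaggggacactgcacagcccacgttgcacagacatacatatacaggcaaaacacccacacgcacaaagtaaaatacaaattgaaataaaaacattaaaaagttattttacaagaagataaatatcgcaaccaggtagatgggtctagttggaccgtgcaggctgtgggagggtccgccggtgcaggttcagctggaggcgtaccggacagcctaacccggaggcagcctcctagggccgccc
RefSeq promoters were held for 8 of the 10 genes, in 10 windows, since Txnrd1 had 3. Gclc and Gsr had none. TGACNNNGC stood in 3 of the 10 windows, those of Nfe2l2 (240 bases before the start), Gclm (134 bases before, on the opposite strand) and Txnrd1 (92 bases before, on the opposite strand). Among all 32851 promoter windows of this length, 10.2% held it. TGANTCA stood in 2 of the 10 windows, with 2 copies in Srxn1 (102 and 45 bases before the start) and 1 in Osgin1 (97 bases before), against 6.75% of all windows. No copy of one motif overlapped a copy of the other. The windows of Keap1, Nqo1, Slc7a11 and the other Txnrd1 starts held neither run of letters, which says nothing of elements farther away. A match of letters is a description and not a measured binding site.

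Between 64.8% and 65.5% of probes were well above background on the Sec15 KO arrays, against 67.3% to 70.3% on the WT arrays, and no spot was saturated. By the scan time in the file headers, KO replicate 2 and the 3 WT arrays were read in scan 1, and KO replicates 1 and 3 in scan 2. A difference between the genotypes can therefore be read within scan 1 only through KO replicate 2. These within-scan values are given below beside the pooled ones for the tested members and for some genes of the other lists. Over the tested probes KO replicate 2 correlated with KO replicates 1 and 3 at r = 0.969 and 0.975. With WT replicates 1, 2 and 3 it correlated at 0.974, 0.958 and 0.967. KO replicates 1 and 3, both of scan 2, correlated at 0.993. Of the Sec15 genes, Exoc6 (1 probe) was well above background on 0 KO arrays and 1 WT array, and the Exoc6b probe A_52_P265544 was so on no array of either group. The Exoc6b probe A_55_P1997415 fell by 0.53 on the log2 scale (SE 0.15, limma adjusted p = 0.0436). Where these probes lie relative to the deleted part is not known, so they do not check the genotype. All 10 hepatocyte marker genes, among them Alb (albumin) and Ttr (transthyretin), were measured on this platform and passed the filter on dim probes.

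Values below are log2 processed signals minus the 75th percentile of the array, so 0 is the 75th percentile of the array's probes. Levels are not compared between probes. Testing required a signal well above background on 3 or more of the 6 arrays. Of the 11 member probes 10, for 9 genes, met this on all 6 arrays, and the exception was Slc7a11. A probe was called at a limma p-value under 0.05 after Benjamini-Hochberg adjustment over all 27060 probes tested. The exact two-sided permutation test of a single probe cannot go below p = 0.1 with 3 samples against 3.

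The first question was whether the regulator and its inhibitor differed in RNA level. Both rose in KO liver. Keap1, the adaptor that marks Nrf2 for degradation, read 1.63, 1.41 and 1.64 in KO livers, against 0.84, 0.84 and 0.83 in WT livers. The KO values lay well above the WT values, which agreed to within 0.01. The difference was 0.73 on the log2 scale (SE 0.10), a 1.65-fold rise with a limma adjusted p of 0.0099. Within scan 1 KO replicate 2 stood 0.57 above the WT mean, and with the scan as a block the call remained (adjusted p = 0.0372). The call was lost without KO replicate 3 (0.69, adjusted p = 0.0557) and without WT replicate 3 (0.72, adjusted p = 0.0625).

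Nfe2l2, which encodes Nrf2 itself, read 2.95, 2.80 and 2.99 in KO livers, against 2.56, 2.27 and 2.45 in WT livers. The groups did not overlap, and the gap between them was 0.24. The difference was 0.49 (SE 0.12), a 1.40-fold rise with a limma adjusted p of 0.031. Within scan 1 it was 0.38, and with the scan as a block the call ended (adjusted p = 0.15). Under cyclic loess, a scaling that takes out trends with brightness, it was 0.23 (adjusted p = 0.129), whereas Keap1 stood at 0.55 (adjusted p = 0.0129). Leaving out KO replicate 1, KO replicate 3, WT replicate 2 or WT replicate 3 also ended the Nfe2l2 call, at 0.47, 0.45, 0.41 and 0.50 (adjusted p between 0.0872 and 0.122).

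**Figure D1:**
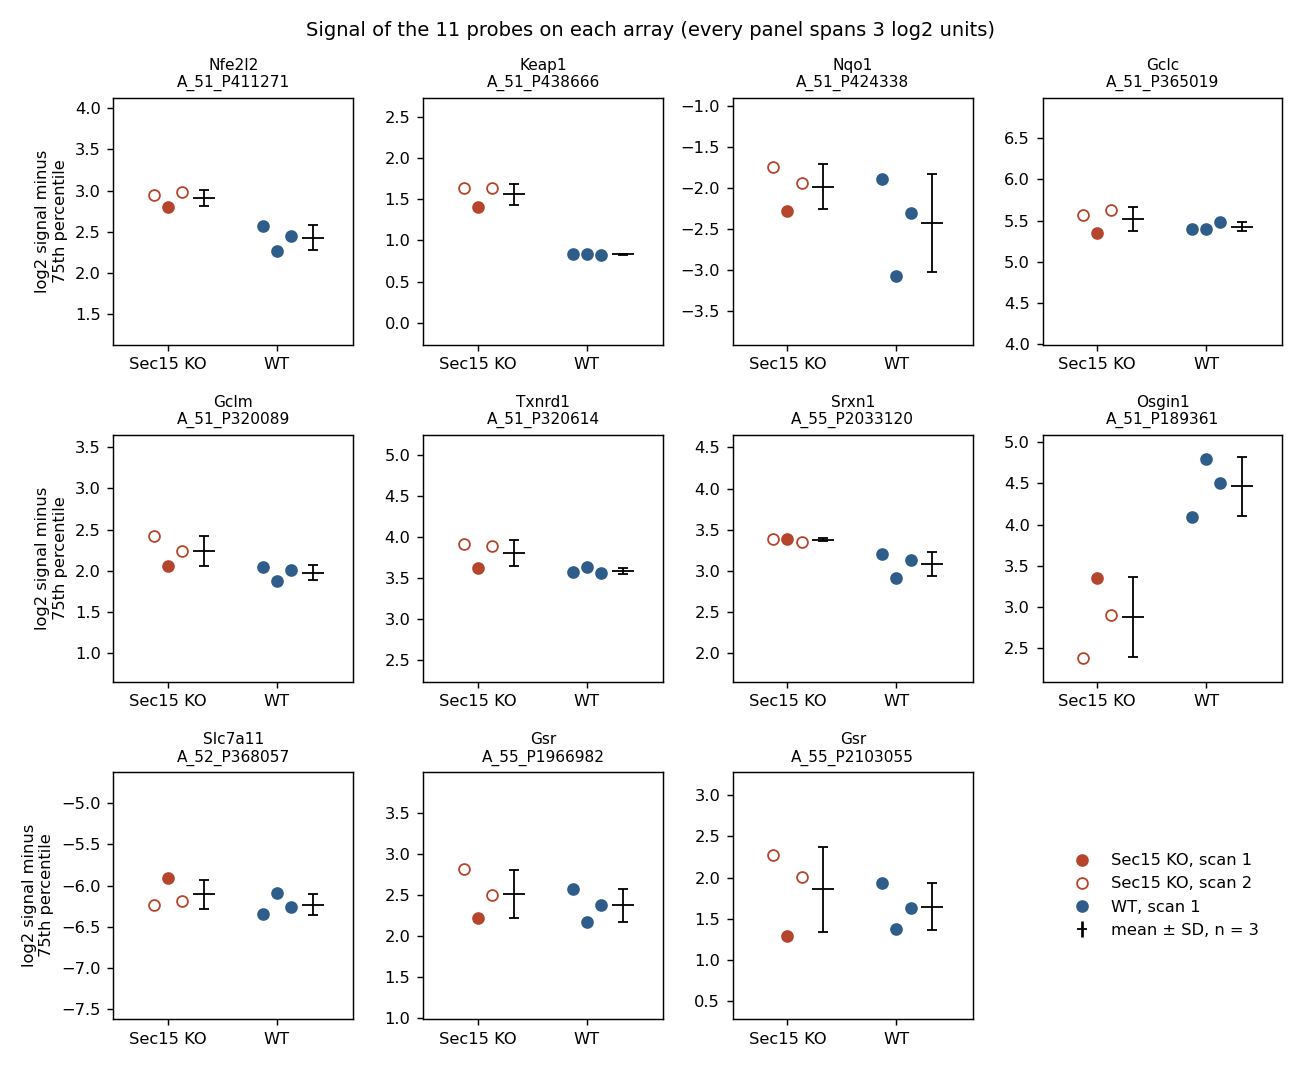
Log2 signal minus the array's 75th percentile (vertical axis, 3 log2 units in each panel) of the 11 probes in Sec15 KO (left, red) and WT (right, blue) livers. Each point is 1 array, filled for scan 1 and open for scan 2, and the black marks give the mean ± SD (n = 3). The KO points lie above the WT points for Keap1, Nfe2l2, Srxn1 and Gclm and below them for Osgin1, and overlap for the other 6 probes.

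Osgin1 had the largest difference of the 9 genes tested, and it was a fall. The gene encodes an oxidative stress-induced growth inhibitor and is a known Nrf2 target in human cells. It read 2.38, 3.35 and 2.90 in KO livers, against 4.09, 4.80 and 4.50 in WT livers. The highest KO value lay 0.74 below the lowest WT value, although both groups spread widely (SD 0.49 in KO and 0.35 in WT). Osgin1 was 3.01-fold lower in KO, a log2 difference of -1.59 (SE 0.29), with a limma adjusted p of 0.0165. Of the 27060 probes tested, 896, or 3.31%, had a lower log2 fold change. Within scan 1 the difference was -1.12 for KO replicate 2, and with the scan as a block the call ended (adjusted p = 0.0921). Under cyclic loess it was -1.88 (adjusted p = 0.0159). The call was also lost without KO replicate 3 (-1.60), WT replicate 2 (-1.42) or WT replicate 3 (-1.57), with adjusted p between 0.0582 and 0.0743. The fall ran opposite to the rises of Nfe2l2 and Keap1 on the same arrays.

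Slc7a11 takes up cystine, which is a source, though not the only one, of the cysteine used for glutathione synthesis. Gclc, the catalytic subunit of glutamate-cysteine ligase, joins cysteine to glutamate together with its modifier subunit Gclm. Gclc read 5.57, 5.35 and 5.63 in KO livers, against 5.40, 5.39 and 5.49 in WT livers. KO replicate 2 was the lowest of all 6 values and the other KO samples the highest. The difference was 0.09 (SE 0.11, limma adjusted p = 0.541). It turned to -0.07 within scan 1, to -0.22 with quantile normalisation and to -0.18 with cyclic loess, and with normexp background correction and quantile normalisation together it was -0.29 and passed the test (adjusted p = 0.0302).

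Gclm read 2.43, 2.06 and 2.24 in KO livers, against 2.04, 1.87 and 2.00 in WT livers. The lowest KO value lay only 0.02 above the highest WT value. The difference of 0.27 (SE 0.13) did not pass the test (limma adjusted p = 0.15), and within scan 1 it was 0.09. The Slc7a11 probe was well above background on no array. It read -6.24, -5.90 and -6.18 in KO livers and -6.34, -6.09 and -6.26 in WT livers, against a lowest well-above-background signal of between -4.21 and -3.91 per array, so no fold is given.

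Oxidised glutathione is returned to its reduced form by Gsr, glutathione reductase. Its probe A_55_P1966982 read 2.82, 2.22 and 2.50 in KO livers, against 2.57, 2.17 and 2.38 in WT livers, a difference of 0.14 (SE 0.19, limma adjusted p = 0.582). The second probe, A_55_P2103055, read 2.28, 1.28 and 2.00 in KO livers, against 1.94, 1.37 and 1.63 in WT livers, a difference of 0.21 (SE 0.29, limma adjusted p = 0.594). On both probes the groups overlapped, the KO values from scan 2 were higher than the one from scan 1, and the within-scan differences were -0.15 and -0.36. Cyclic loess gave -0.10 and 0.01.

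In the thioredoxin arm, Txnrd1 is the cytosolic thioredoxin reductase, a selenoprotein, and Srxn1 is sulfiredoxin, which repairs overoxidised peroxiredoxins. Srxn1 read 3.39, 3.39 and 3.35 in KO livers, against 3.20, 2.92 and 3.13 in WT livers. The KO values agreed to within 0.03 and all lay above the WT values. The difference of 0.29 (SE 0.11) missed the threshold (limma adjusted p = 0.0878). It was 0.30 within scan 1 and 0.02 after cyclic loess. Txnrd1 read 3.91, 3.62 and 3.88 in KO livers, against 3.57, 3.63 and 3.56 in WT livers. Only KO replicate 2, the sample of scan 1, fell within the WT range. The difference was 0.22 (SE 0.11, limma adjusted p = 0.182), 0.03 within scan 1, and -0.07 after cyclic loess.

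Nqo1, the quinone reductase that is the classical readout of Nrf2 activity, read -1.74, -2.28 and -1.94 in KO livers, against -1.89, -3.07 and -2.31 in WT livers. The WT samples alone spanned 1.18 log2 units, WT replicate 2 was the lowest, and the groups overlapped. The difference of 0.44 (SE 0.32, limma adjusted p = 0.321; exact two-sided permutation p = 0.4) was within the spread between replicates. Within scan 1 it was 0.15, without WT replicate 2 it was 0.11, and without WT replicate 1 it was 0.70 (adjusted p = 0.128).

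Of the 10 member probes tested, 2 were called higher (Keap1 and Nfe2l2) and 1 lower (Osgin1) in KO. Over all probes tested 17.0% were called higher and 11.6% lower, 28.6% in all. The share of members called, 3 of 10, is thus near the background and is not a result about the members as a group. The KO values lay above the WT values for 4 member probes and below them for 1, against 30.6% and 19.6% of all probes tested, or 50.1% for both directions. For those 5 probes the two-sided exact permutation p was 0.1, the smallest possible here, and for the other tested ones it lay between 0.2 and 0.7. Over the members tested the median log2 fold change was 0.24, beside 0.08 over all probes tested. With the scan as a block the member median was 0.061, beside 0.079 over all probes, and after cyclic loess it was 0.012, beside 0.0010. The median of all probes was 0.19 with each array centred on its median. Higher calls made up 59.4% of all calls with the 75th percentile, 70.1% with median centring and 48.0% with cyclic loess. Each difference above is therefore relative to the chosen scale.

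**Figure D2:**
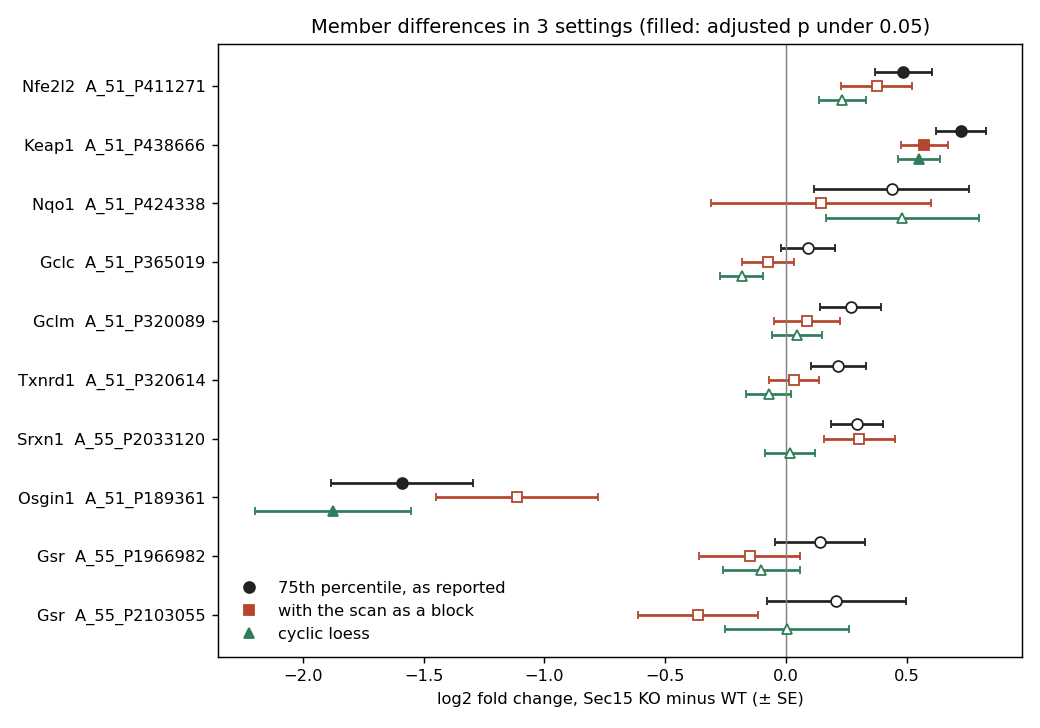
Log2 fold change (horizontal axis, Sec15 KO minus WT, bars ± SE) of the 10 tested member probes with the 75th percentile scale (black circles), with the scan as a block (red squares) and after cyclic loess (green triangles). Filled symbols passed the adjusted threshold of 0.05: Keap1 is filled in all 3 settings, Osgin1 in 2 and Nfe2l2 in 1, while Gclc, Txnrd1 and both Gsr probes change sign in at least 1 setting.

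Brightness moved with these values. In the brightest decile of tested probes the median log2 fold change was 0.29 and 36.4% were called higher, whereas in the dimmest decile the median was -0.26 and 4.99% were called higher. Srxn1, Txnrd1, Gclc and Osgin1 lay in the brightest decile. Srxn1 (0.29) matched that decile's median, and Txnrd1 (0.22) and Gclc (0.09) lay below it. Gclm (0.27) and the Gsr probes (0.14 and 0.21) lay in decile 9, whose median was 0.24. Nfe2l2 (0.49) was in decile 9 too and stood above its median, as did Keap1 (0.73) in decile 8, whose median was 0.21. Nqo1 (0.44) was in decile 4, with a median of -0.07. Osgin1 (-1.59) lay below the 5th percentile of its decile, which was -0.62. The part of brightness in the differences of single members was not tested beyond the cyclic loess values above.

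**Figure D3:**
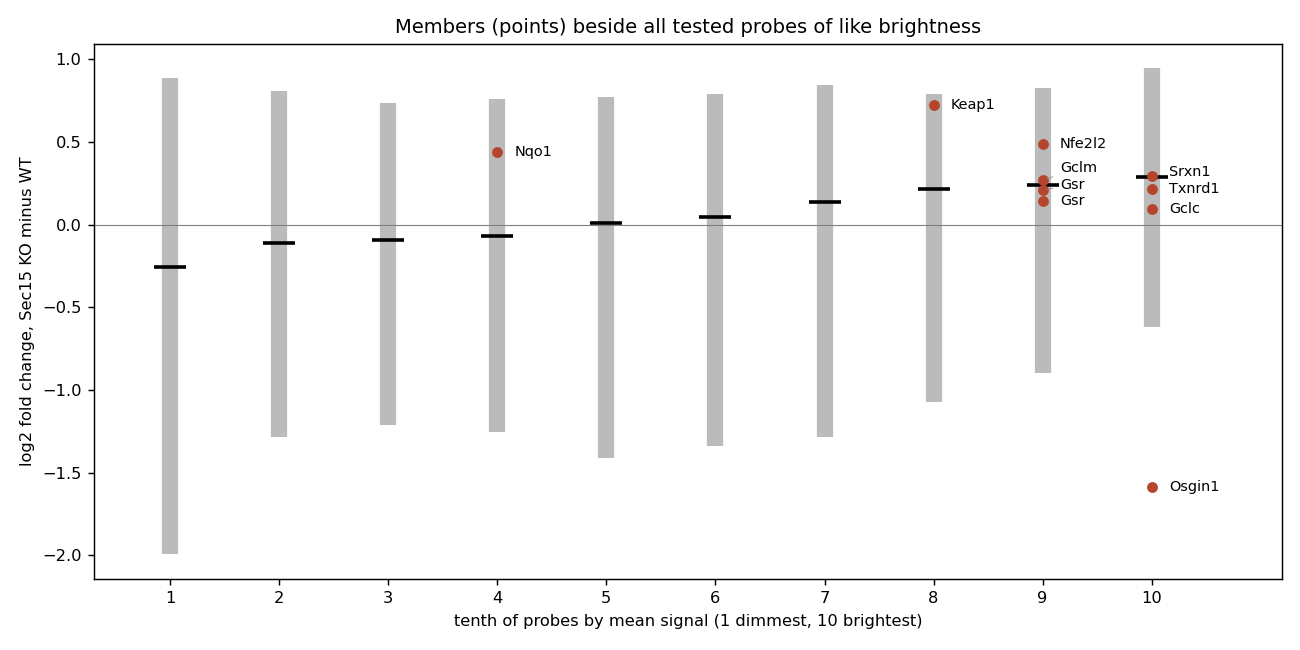
Log2 fold change (vertical axis, Sec15 KO minus WT) by decile of mean signal over the 6 arrays (horizontal axis, 1 dimmest and 10 brightest). Grey bars span the 5th to 95th percentile and black marks the median of the 2706 tested probes of each decile, and red points are the member probes, of which Osgin1 is the only one outside its bar.

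The partners and regulators of Nrf2 were described next as a list of 14 genes, of which 19 probes for 13 genes were tested. In KO liver 4 of these probes rose and 0 fell at the adjusted limma threshold (5 and 0 at an unadjusted p under 0.05), with a median of 0.20. That is 21.1% called higher, near the 17.0% over all probes, and is not a result about the list. Cul3, the scaffold of the ligase that Keap1 serves, read 1.21, 0.74 and 1.12 in KO livers, against 0.37, 0.34 and 0.34 in WT livers. All 3 KO values stood apart from the WT values, and the rise was 1.59-fold (SE 0.14 on the log2 scale, limma adjusted p = 0.0226). On the log2 scale the Cul3 difference was 0.67, and within scan 1 it was 0.39. Rbx1, the RING subunit of the same ligase, rose on 2 of its 3 probes (0.59 and 0.38), and the third read 0.12. Nfe2, a relative of Nrf2 that works in red cell and platelet precursors, was well above background on 3 KO arrays and 0 WT arrays and was at least 2.28-fold higher in KO (limma adjusted p = 0.00814). Among members that were not called, Btrc, which serves another ligase for Nrf2, stood at 0.77 on the 1 probe tested. The repressor Bach1 was at 0.26, the Keap1-binding autophagy receptor Sqstm1 at -0.04, and the 3 probes of the small Maf gene Mafg between -0.24 and 0.04. With the scan as a block 1 probe of this list was called higher and 1 lower.

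Other known Nrf2 targets moved in both directions. Of 41 tested probes for 28 genes, 5 rose and 5 fell, with a median of 0.07. That is 12.2% in each direction, against 17.0% higher and 11.6% lower over all probes. Aox1, an aldehyde oxidase, read 3.12, 2.96 and 3.12 in KO livers, against 3.99, 3.80 and 3.88 in WT livers, and was 1.77-fold lower (SE 0.10 on the log2 scale, limma adjusted p = 0.00804). The glutathione transferase probes Gstm1 A_55_P1966432 and Gstm3 A_55_P2065231 fell by 1.06 and fell by 1.03. The other Gstm1 and Gstm3 probes read -0.39 and -0.15 and were not called, and probes of these close copies may share signal. Abcc3, an exporter of glutathione and glucuronide conjugates, rose 1.53-fold (SE 0.11 on the log2 scale).

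The heme oxygenase gene Hmox1 gave opposite answers on its 2 probes. Probe A_55_P2029687 read -0.25, -0.08 and -0.25 in KO livers, against 0.36, 0.46 and 0.25 in WT livers, and fell by 0.55 (SE 0.11, limma adjusted p = 0.0185). Probe A_51_P263965 read 1.35, 1.75 and 1.44 in KO livers, against 0.81, 1.07 and 0.99 in WT livers, and rose by 0.56 (SE 0.14, limma adjusted p = 0.0353). Neither probe's groups overlapped, so no single direction can be given for Hmox1. The other called probes, named after their values were seen, were those of Akr1b8, Htatip2 and Abcc4, which were higher, and 1 of the 2 Ephx1 probes, which was lower. Under cyclic loess 1 probe of this list was called higher and 8 lower, with a median of -0.17, and with the scan as a block 2 were higher and 3 lower.

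Enzymes that supply NADPH, or that use glutathione or thioredoxin, were described as 3 lists, whose counts stand beside 17.0% called higher and 11.6% called lower over all probes. Of 8 probes of NADPH supply, 2 rose and 0 fell (also 2 and 0 at an unadjusted limma p under 0.05). They were 1 of the 3 probes of Me1, malic enzyme (0.60), and Pgd, phosphogluconate dehydrogenase (0.49). Within scan 1 these stood at 0.37 and 0.38. Taldo1 stood at 0.18 and G6pdx at -0.35, uncalled. Of 16 probes of glutathione enzymes, 3 rose and 1 fell. Glo1, glyoxalase, read 4.79, 5.25 and 5.16 in KO livers, against 4.00, 3.88 and 3.91 in WT livers, and rose 2.19-fold (SE 0.14 on the log2 scale, limma adjusted p = 0.00826). Gpx7 rose 1.65-fold and 1 of the 3 Glrx2 probes rose by 0.35. Chac1, which degrades glutathione, was 2.14-fold lower in KO. Slc3a2, the partner chain of Slc7a11, stood at -0.32 and was not called.

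Of 20 probes of thioredoxin, peroxiredoxin and superoxide enzymes, 5 rose and 0 fell (6 and 2 at an unadjusted limma p under 0.05), against 17.0% higher and 11.6% lower over all probes. Txn1, the thioredoxin that Txnrd1 reduces, read 6.34, 6.40 and 6.49 in KO livers, against 5.84, 5.79 and 5.84 in WT livers. The rise was 1.50-fold (SE 0.09 on the log2 scale, limma adjusted p = 0.0115), and within scan 1 it was 0.58. Prdx4 rose by 0.46, mitochondrial superoxide dismutase Sod2 by 0.56 and the 2 probes of Prdx1 by 0.49 and 0.61. Within scan 1 the differences were 0.47 for Prdx4, 0.32 for Sod2 and 0.24 and 0.27 for the Prdx1 probes. Only 1 probe of this list was called higher after cyclic loess and 1 with the scan as a block, with 1 lower in each. For NADPH supply both settings left 0 calls, and for the glutathione enzymes 2 probes were called higher in each, with 2 lower after cyclic loess and 0 lower with the scan as a block.

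**Figure D4:**
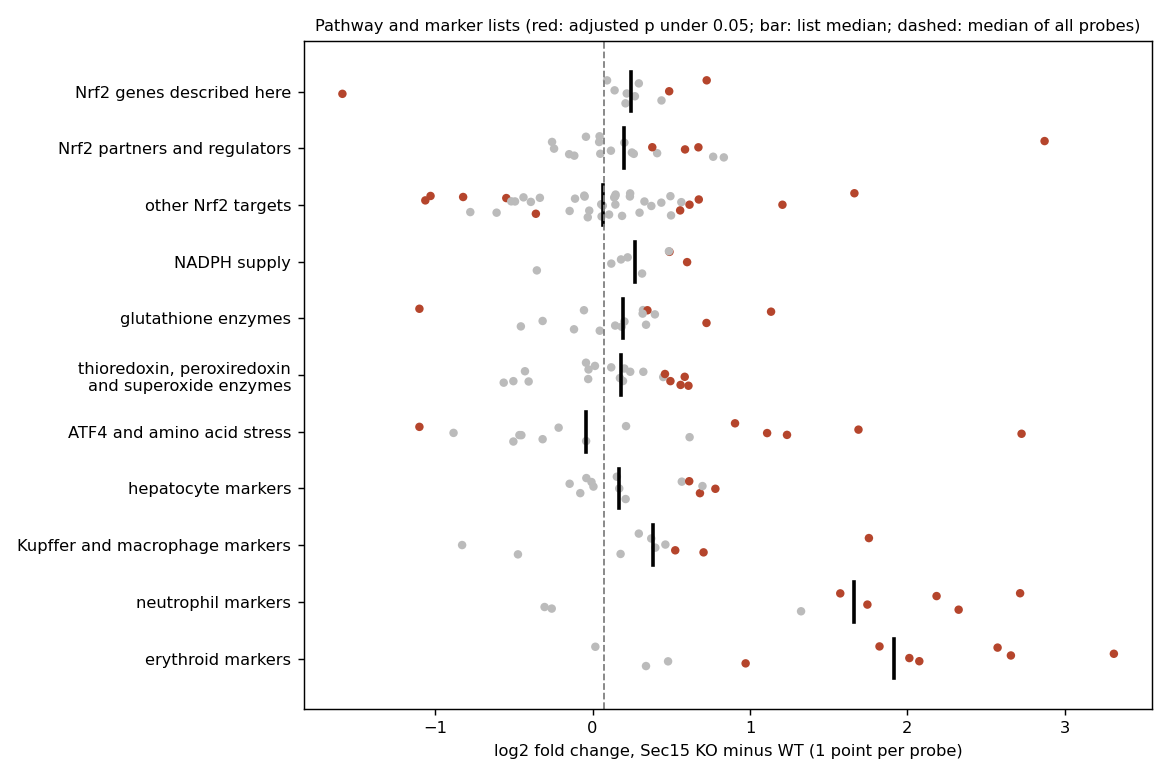
Log2 fold change (horizontal axis, Sec15 KO minus WT) of every tested probe of the members and of 10 other lists (rows), 1 point per probe, red where the adjusted p was under 0.05. Black bars give the list medians and the dashed line the median of all probes (0.08); the Nrf2-related rows sit close to that line, while the neutrophil and erythroid rows lie to the right, with medians of 1.66 and 1.92.

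Markers of other cells were counted in the same way, beside 17.0% called higher and 11.6% called lower over all probes. The shares called higher were 70% of erythroid, 62.5% of neutrophil, 30% of Kupffer and 23.1% of hepatocyte probes, the last near that background. The bile duct and stellate lists had only 5 and 3 tested probes. Of 10 erythroid marker probes, 7 rose and 0 fell (8 and 0 at an unadjusted limma p under 0.05). Slc4a1, the red cell anion exchanger, was higher by 2.08 (SE 0.16) and Hba-a1, an alpha globin, by 2.01 (SE 0.17). The erythroid genes Alas2 (0.02, and -0.45 within scan 1), Klf1 (0.34) and Epb42 (0.48), named after their values were seen, were not called. The mean level of the list ranged from 2.08 to 2.18 in KO livers, against 0.26 to 0.83 in WT livers. Of 8 neutrophil marker probes, 5 rose and 0 fell (5 and 1 at an unadjusted p under 0.05), with a mean level of -1.34 to 0.13 in KO livers, against -2.27 to -1.80 in WT livers. Of 10 Kupffer and macrophage probes, 3 rose and 0 fell (5 and 1 at an unadjusted p under 0.05), and the mean level was 0.75 to 1.20 in KO livers, against 0.51 to 0.87 in WT livers. S100a8 and S100a9, calcium-binding proteins abundant in neutrophils, were higher by 2.72 and 2.33, and Marco, a macrophage scavenger receptor, by 1.76. Other markers of these lists, named after their values were seen, were lower and not called. They were the neutrophil genes Elane (-0.30) and Ltf (-0.26), and the macrophage probes Adgre1 A_55_P2018934 (-0.83) and Csf1r A_52_P602091 (-0.47). The other Adgre1 probe stood at 0.40, and the other Csf1r probes at 0.37 and 0.18, also uncalled. The macrophage gene Lyz2 was well above background on no array. In the sinusoidal endothelium 3 of 6 probes rose, among bile duct markers 1 of 5 fell, among stellate cell markers 1 of 3 rose, among lymphocyte markers 3 of 5 fell, and among pancreas markers 2 of 7 rose and 5 fell. Of 13 hepatocyte marker probes 3 rose (Fgb, Hnf4a and Cps1). In tissue RNA, a change in the number of cells of a type and a change in RNA per cell cannot be told apart. Cyclic loess gave 7 erythroid probes higher and 0 lower, and 4 neutrophil probes higher and 1 lower. KO replicate 2 had the highest neutrophil mean level, 0.13. With the scan as a block, where the genotype difference rests on KO replicate 2, the erythroid and neutrophil counts stayed at 7 and 5 higher. The Kupffer list then had 0 calls, the sinusoidal list 1 higher, the hepatocyte list 1 higher, the lymphocyte list 1 lower and the pancreas list 0 higher and 2 lower. The part of these cell types in the differences of the Nrf2 genes was not tested.

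The 3 named genes whose pattern over the 6 arrays was nearest to that of Nfe2l2, by the mean absolute difference of mean-centred values, were Afm (0.013 log2 units), Lgalsl (0.014) and Capn10 (0.016). For Nqo1 they were Map3k7 (0.031), Zfp937 (0.049) and Atg4b (0.059). None of them is on the lists above, and with 27060 probes and 6 arrays such a likeness is a description only.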

How the data were processed

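Total RNA of 6 liver samples was measured on one-colour arrays. Per the file headers, the deposited values are intensity per spot from Agilent Feature Extraction 11.0.1.1, not normalised between arrays, after subtraction of background and detrending by the software. Alongside them the authors deposited other values, 0 or 1 flags that mark bright, saturated and outlying spots. Control spots were dropped, as were 178 to 236 outliers on each array. Replicate spots were averaged as log2 of the processed signal, and each array's 75th percentile was subtracted. The files give no gene names, so accessions were matched to RefSeq (assembly GRCm38.p6), which named 27234 of 39429 probes. Promoters came from the same assembly.

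For Sec15 KO against WT, lmFit and eBayes of limma 3.58.1 were run in R 4.3.3 (jsonlite 2.0.0) on probes bright enough on 3 or more of 6 arrays, with no covariate. The fit was tested on simulated data. All member probes were named. Of the other lists up to 4 genes with the smallest p were named, together with Hmox1, Bach1, Mafg, Sqstm1, Slc3a2 and Atf4. The members and lists were chosen with earlier results of these data known. The alternatives were other scalings (quantile, median, cyclic loess), normexp with an offset of 50, other filters, a trended robust eBayes, weighting of arrays, the scan, and each sample left out. For the lists, the scan and cyclic loess were added after seeing the data. The labels share replicate numbers between the groups, but these were not taken as pairs. The number of arrays limits the precision.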

Additional observations from a re-analysis of the deposited data

How the results depend on the processing

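All called members kept their direction under the 18 alternatives, but not their calls: Keap1 was called in 15, Osgin1 in 13 and Nfe2l2 in 9. Against 4593 probes higher and 3144 lower, cyclic loess gave 2920 higher, no filter 2934 higher, array weights 10955 higher and 8510 lower, and the scan as a block 1312 higher and 1214 lower. With only the arrays of scan 1, limma called 0 higher and 0 lower (7840 at an unadjusted p under 0.05). Leaving out 1 sample gave 204 to 6815 higher and 151 to 5793 lower, the lowest without WT replicate 3 and the highest without KO replicate 2. With WT replicates 1 and 2 averaged, which share a file number, 4273 probes were higher and 2674 lower. Keap1, Nfe2l2 and Osgin1 then kept their calls (limma adjusted p = 0.0185, 0.0308 and 0.0272). Among members 1 was called higher with quantile normalisation, cyclic loess or no filter, 2 lower with normexp and quantile, 6 higher with array weights, 1 higher and 0 lower with the scan as a block, 0 higher and 0 lower in scan 1 alone, and 0 to 4 higher and 0 to 1 lower with 1 sample left out. Gclc reversed to -0.22 with quantile normalisation, -0.18 with cyclic loess, -0.29 with normexp and quantile together and -0.074 with the scan as a block or scan 1 alone. Txnrd1 reversed to -0.070 with cyclic loess and -0.072 with normexp and quantile together. Gsr A_55_P1966982 reversed to -0.10 with cyclic loess and -0.15 by scan, and ranged from -0.011 to 0.28 with 1 sample left out. Gsr A_55_P2103055 reversed to -0.36 by scan and ranged from -0.0024 to 0.50. The cause was not tested.

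Same-numbered samples had residual correlations of 0.10, 0.11 and 0.02, and differently numbered ones lay between -0.11 and 0.04. All were weak, so the numbers were not read as pairs. The replicate block gave 3432 probes higher and 2696 lower, and 2 members higher and 1 lower. With it the SE was 0.10 for Osgin1 and 0.16 for Nqo1, beside 0.29 and 0.32 without it.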

Other observations

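Genes of the amino acid stress response, which shares Slc7a11 and Slc3a2 with the Nrf2 response, were also listed. Of 15 tested probes for 12 genes, 5 were higher and 1 lower in KO, against 17.0% and 11.6% of all probes, with a median of -0.04. Ddit4, an inhibitor of mTORC1, was higher by 2.73 (SE 0.21), Trib3, a pseudokinase, by 1.69 (SE 0.28) and the transcription factor Atf5 by 0.91 (SE 0.11), all on the log2 scale and called by limma. Atf4 itself stood at -0.04 and -0.45 on its 2 probes and was not called, and Chac1 was lower by the value given above. The rest of the tested list was named after its values were seen. Both Cth probes were called higher (1.24 and 1.11). Asns (-0.88), Sesn2 (-0.50), Slc3a2 (-0.32) and both Phgdh probes (-0.22 and -0.46) were lower and not called. Atf3 (0.62) and Ddit3 (0.21) were higher and not called. With the scan as a block 2 probes of this list were called higher and 0 lower.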
